A study of Mus musculus with 48 samples.

Results

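Interferon-stimulated genes are described here in mPDAC cells, a cell line from a mouse pancreatic ductal adenocarcinoma, with and without N6L, an antagonist of the nucleolar and cell surface protein nucleolin. The members are 9 genes taken by symbol, of 50600 genes listed in the count files: 4 regulators of transcription (Stat2, Irf9, Irf1 and Irf7) and 5 effectors (Isg15, Ifit1, Ifit3, Oasl2 and Bst2). All 9 were found in the files. The cells carry the genetic background FVB/N x C57BL6, from animals given as 8-week-old, and this is shared by all groups. The treated group received 50 µM N6L for 48 h, the dose being that of the methods of the study, and the control group was not treated. From each culture, RNA of the cytoplasm and RNA of the pooled polysomal fractions of a sucrose gradient was sequenced, with 3 cultures in each of the 4 combinations of treatment and fraction. The model is 1 cell line in culture, without the immune and stromal cells of a tumour.

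Interferons are secreted proteins that cells release when they sense viral or other foreign nucleic acid. Type I and type III interferons bind receptors whose Janus kinases phosphorylate STAT proteins, STAT2 among them. STAT2 and IRF9 are part of the complex ISGF3, which binds the interferon-stimulated response element (ISRE) in promoters of antiviral genes, whereas interferon-gamma acts at the gamma-activated site (GAS). IRF1 and IRF7 are further transcription factors of the pathway, both themselves induced by interferon.

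The promoters of the members are shown first, because they differ in the presence of these elements. RefSeq promoter windows (GRCm38.p6, 250 bases before to 50 after a transcription start) were found for 9 of 9 members. They were searched on both strands for GAAANNGAAA, the direct repeat at the core of the ISRE, and for TTCNNNGAA, the palindrome of the GAS, which can overlap the former. The direct repeat was present in a window of 3.99% of the 27025 genes with one and the palindrome in 9.55%. Among the members, 5 of 9 held the direct repeat (4 of the 5 effectors and 1 of the 4 regulators) and 2 of 9 the palindrome. The 250 bases before the start of the 6 members with a match are printed 5′ to 3′ along the strand of the gene, with matches in capitals. The windows of Irf7, Irf9 and Oasl2 held neither set of letters.

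The window of Isg15 (chr4:156200819-156201068, minus strand) held 3 overlapping direct repeats, the first base of the first lying at -78 from the start. In Ifit1 (chr19:34640639-34640888, plus strand) the 2 matches began at -104 and -85, and in Ifit3 (chr19:34583279-34583528, plus strand), 2 matches began at -156 and -122, on the opposite strand in both genes. Bst2 (chr8:71537473-71537722, minus strand) had 2 overlapping repeats from -130 and a palindrome from -136 that overlapped the first of them. Stat2 (chr10:128270248-128270497, plus strand) was the regulator with a direct repeat, at -222 on the opposite strand, and Irf1 (chr11:53769764-53770013, plus strand) had a palindrome at -90. A match describes letters and is not a measured binding site.
Isg15: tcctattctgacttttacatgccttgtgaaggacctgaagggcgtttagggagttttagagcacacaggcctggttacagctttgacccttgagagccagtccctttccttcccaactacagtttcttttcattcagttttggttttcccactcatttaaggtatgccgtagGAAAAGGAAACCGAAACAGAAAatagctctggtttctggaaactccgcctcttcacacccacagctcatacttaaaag
Ifit1: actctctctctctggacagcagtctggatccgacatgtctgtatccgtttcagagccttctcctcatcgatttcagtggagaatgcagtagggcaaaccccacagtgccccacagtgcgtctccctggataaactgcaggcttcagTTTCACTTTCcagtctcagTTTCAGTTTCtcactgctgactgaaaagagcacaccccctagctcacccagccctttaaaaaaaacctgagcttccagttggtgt
Ifit3: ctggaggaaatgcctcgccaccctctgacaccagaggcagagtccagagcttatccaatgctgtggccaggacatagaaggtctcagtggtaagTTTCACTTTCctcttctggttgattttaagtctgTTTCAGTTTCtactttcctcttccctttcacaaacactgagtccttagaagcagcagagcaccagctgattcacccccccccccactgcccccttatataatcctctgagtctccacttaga
Bst2: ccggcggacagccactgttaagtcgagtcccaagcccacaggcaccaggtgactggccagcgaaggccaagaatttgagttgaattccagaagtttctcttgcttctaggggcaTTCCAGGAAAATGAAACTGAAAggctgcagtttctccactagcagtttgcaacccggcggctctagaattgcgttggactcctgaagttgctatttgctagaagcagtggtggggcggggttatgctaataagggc
Stat2: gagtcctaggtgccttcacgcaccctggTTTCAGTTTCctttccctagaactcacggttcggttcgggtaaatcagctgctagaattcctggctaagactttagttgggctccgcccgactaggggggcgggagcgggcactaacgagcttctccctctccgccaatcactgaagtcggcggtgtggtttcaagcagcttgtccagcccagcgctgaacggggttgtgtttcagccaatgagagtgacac
Irf1: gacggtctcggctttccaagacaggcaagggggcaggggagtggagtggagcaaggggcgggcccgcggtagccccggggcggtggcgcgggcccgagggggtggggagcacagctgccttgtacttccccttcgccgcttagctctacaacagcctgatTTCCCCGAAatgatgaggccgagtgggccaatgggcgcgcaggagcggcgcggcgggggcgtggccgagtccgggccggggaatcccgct

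Summed counts per library ranged from 19519911 to 44972333. The 3 cultures of a group correlated by 0.9802 to 0.9947 (Pearson's r of log2 CPM over 13889 genes), apart from the polysomal libraries of N6L cultures 1 and 3, at 0.968. The polysomes of N6L cultures 2 and 3 held the lowest of the other values, and N6L culture 3 thus stood somewhat apart in the polysomes. Values without it are given where it changed a result. The summed level of 7 ductal markers (Krt7, Krt8, Krt18, Krt19, Epcam, Cdh1 and Sox9) was 6427 to 10520 CPM, a scale of counts relative to the library total after TMM scaling, although Epcam, a defining epithelial marker, was at 0.0349 to 0.301 CPM. The 6 markers of haematopoietic cells summed to 0.976 to 2.23 CPM, nearly all of it Cd68 (Ptprc at most 0.0908 CPM), and the 6 of fibroblasts and 3 of endothelium to 0.491 to 1.22 and 0.271 to 1.03 CPM. Ranges of these sums overlapped between N6L and non-treated libraries of the same fraction for all 4 lists, but single markers moved. Sox9 rose 2.12-fold in the cytoplasm and 2.11-fold in the polysomes (FDR 0.0023 and 0.00514). Krt7 fell to 0.512 of the non-treated level in the cytoplasm (FDR 0.00829) and was at 0.666-fold in the polysomes (FDR 0.112). Pecam1, an endothelial marker, rose 3.80-fold in the cytoplasm from a mean of 0.0926 to 0.361 CPM (FDR 0.0352), from 3, 3 and 1 counts. In the polysomes Pecam1 was at 1.77-fold (FDR 0.361), and its highest level was 0.53 CPM in non-treated culture 1. Cd3e, a T cell marker, had 0 counts in every non-treated library and 2 to 9 counts in every N6L library. The part of these markers in the results was not tested.

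Levels of the members spanned a wide range. Per kilobase of exon sequence, the order in non-treated cytoplasm was Bst2 at 19.9 ± 0.474 CPM per kilobase (SD, n = 3), Irf1 at 14.8 ± 2.34, Irf9 at 2.81 ± 0.680, Stat2 at 1.94 ± 0.232, Isg15 at 0.470 ± 0.0526, Irf7 at 0.366 ± 0.0625, Ifit3 at 0.244 ± 0.0616, Ifit1 at 0.0506 ± 0.0469 and Oasl2 at 0.0232 ± 0.00861. Of these neighbours, Irf9 and Stat2, Isg15 and Irf7, Irf7 and Ifit3, and Ifit1 and Oasl2 had overlapping ranges of mean ± 1 SD. In N6L cytoplasm Irf1 led with 39.98 ± 4.995 CPM per kilobase, ahead of Bst2 at 15.0 ± 2.01, and Irf7 at 0.709 ± 0.0475 stood above Isg15 at 0.377 ± 0.119. Isg15, Ifit1, Ifit3 and Oasl2 reached at most 0.940, 0.565, 0.551 and 0.392 CPM in any of the 12 libraries, with 157, 95, 105 and 82 counts over all of them.

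**Figure D1:**
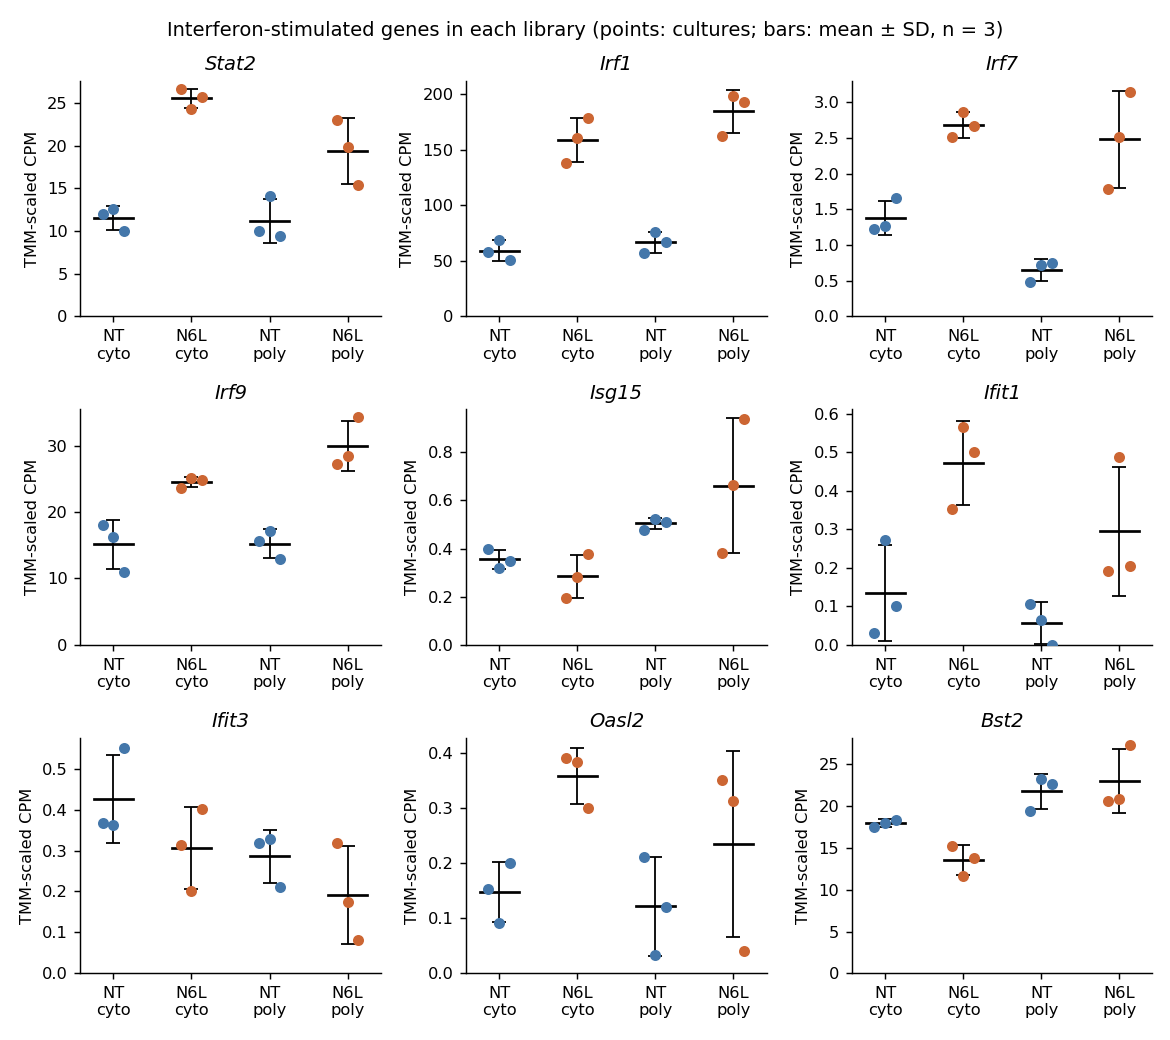
Level of each member in TMM-scaled CPM (vertical axis, starting at 0, scale differing by gene) in the 3 cultures of each group (NT, non-treated; cyto, cytoplasm; poly, polysomes), with points for cultures and bars for the mean ± SD. The N6L cultures lie above all non-treated ones for Stat2, Irf1, Irf7, Irf9 and Ifit1 in both fractions, whereas the points of Isg15 and Ifit3 overlap.

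To find which of these genes changed with N6L, treated and non-treated cultures were compared within each fraction. All 4 regulators rose in the cytoplasm and in the polysomes, by 1.62 to 2.69-fold and 1.73 to 3.70-fold. Of the 5 effectors, Ifit1 alone passed the test in the cytoplasm, as an increase from very low counts, and none passed it in the polysomes in the reported fit or with DESeq2 (1 at an unadjusted p under 0.05, Ifit1). In total 5 of 9 members were called in the cytoplasm at an FDR under 0.05, all higher, where 28.3% of the 13889 genes tested were called and 14.5% were called higher. In the polysomes 4 of 9 were called, all higher, against 9.67% of all genes called and 6.01% called higher, and these 4 were called also without N6L culture 3. Without N6L culture 2 the counts were 2 in each fraction, without non-treated culture 1 they were 3 in the cytoplasm and 2 in the polysomes, and without non-treated culture 4 they were 3 in each. Ifit1 and Oasl2 passed the filter on low counts through N6L libraries alone, so that both had to be higher with N6L to be tested. Of the other 7 members, 4 were called in each fraction, with median log2 changes of 0.70 in the cytoplasm and 0.79 in the polysomes beside 0.042 and 0.001 over all genes tested. Both fractions come from the same cultures, so the 2 comparisons are not separate evidence. Since the RNA is of whole cultures, a change in the number of cells with a transcript and a change in its amount per cell cannot be told apart. CPM values are relative to the library, so a change in the total RNA of a fraction does not show in them.

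The 3 N6L cultures lay above all 3 non-treated ones for 6 members in the cytoplasm (29.3% of all genes) and for 5 in the polysomes (13.7% of all genes). These include Ifit1 in both fractions and Oasl2 in the cytoplasm, for which the filter already required a higher level with N6L. The others were Stat2, Irf1, Irf7 and Irf9 in each fraction. All 9 members passed the filter on low counts, which asks for at least 0.344 CPM in 3 libraries. Ifit1 passed it through 4 libraries and Oasl2 through 3, each of these an N6L library. Ifit3 passed through 4 libraries, 3 of them non-treated, and Isg15 through 8, 4 of each kind.

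**Figure D2:**
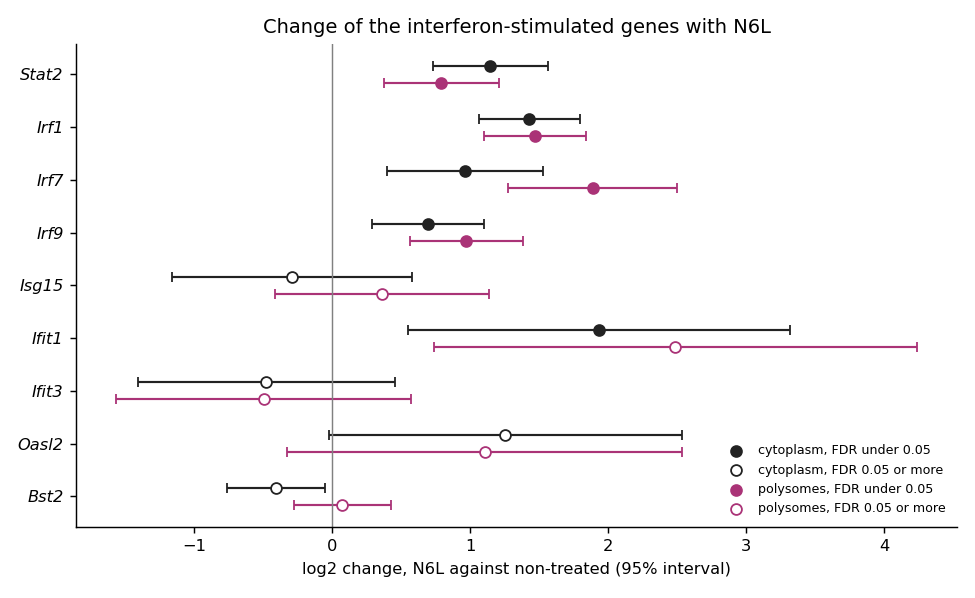
log2 change of each member in N6L against non-treated cultures (horizontal axis) in the cytoplasm (black) and the polysomes (purple), with 95% intervals from edgeR; filled points have an FDR under 0.05. The intervals of Stat2, Irf1, Irf7 and Irf9 lie above 0 in both fractions, while those of Isg15 and Ifit3 span 0 in both.

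Stat2 (ENSMUSG00000040033, chr10:128270559-128292849, plus strand in GRCm38 by GENCODE vM21, as for the positions of the genes that follow), the STAT that is particular to type I and type III interferon signalling, had 12.03, 12.6 and 9.96 CPM in non-treated cytoplasm (cultures 1, 2 and 4) and 26.6, 24.4 and 25.7 CPM in N6L cytoplasm (cultures 1, 2 and 3). In the polysomes it had 10.03, 14.1 and 9.46 CPM without and 23, 19.8 and 15.4 CPM with N6L. The groups did not overlap in either fraction, and the polysomal N6L values spread more than the cytoplasmic ones. Stat2 rose 2.21-fold in the cytoplasm (95% interval 1.66 to 2.96, FDR 0.00203) and 1.73-fold in the polysomes (1.30 to 2.31, FDR 0.023). The cytoplasmic call was kept in all 17 alternatives. The polysomal one was lost without non-treated culture 1 (FDR 0.13) or 4 (0.0778), without N6L culture 1 (0.0676) or 2 (0.129), and when only the polysomal libraries were fitted (0.11).

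Irf9 (ENSMUSG00000002325, chr14:55603571-55610030, plus strand), the DNA-binding subunit of ISGF3, had 18.1, 16.2 and 11.02 CPM in non-treated cytoplasm and 23.7, 25.1 and 24.9 CPM in N6L cytoplasm. Polysomal levels were 15.6, 17.2 and 13.0 CPM without and 27.2, 28.4 and 34.3 CPM with N6L. Again no N6L library overlapped with a non-treated one of its fraction. Irf9 rose 1.62-fold in the cytoplasm (1.22 to 2.15, FDR 0.0164) and 1.96-fold in the polysomes (1.48 to 2.60, FDR 0.00799). Without non-treated culture 4 or N6L culture 2 the cytoplasmic FDR was 0.0655 or 0.107, and without non-treated culture 1 or N6L culture 2 the polysomal one was 0.0508 or 0.0627. Exons of Irf9 overlap Rnf31 on the same strand, a gene with 10086 counts over all libraries, and how reads in the overlap were counted is not given in the sources used here.

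Irf1 (ENSMUSG00000018899, chr11:53770014-53778374, plus strand), which switches on interferon-gamma targets and genes of antigen presentation, was the most abundant regulator. Its cytoplasmic levels were 57.5, 69.0 and 50.6 CPM without and 138.3, 160.6 and 177.9 CPM with N6L. In the polysomes they were 56.6, 76.2 and 66.8 CPM without and 162.2, 198.1 and 193.0 CPM with N6L. The lowest N6L library thus stood far above the highest non-treated one in each fraction. Irf1 rose 2.69-fold in the cytoplasm (2.09 to 3.47, FDR 0.000493) and 2.77-fold in the polysomes (2.15 to 3.57, FDR 0.00063). It was called in all 17 alternatives in each fraction, with log2 changes from 1.30 to 1.59 in the cytoplasm and 1.33 to 1.58 in the polysomes.

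Irf7 (ENSMUSG00000025498, chr7:141262706-141266481, minus strand), the factor that amplifies the production of type I interferons, was low, with 9 to 142 counts per library. It had 1.22, 1.27 and 1.65 CPM in non-treated and 2.51, 2.87 and 2.66 CPM in N6L cytoplasm. In the polysomes it had 0.477, 0.721 and 0.753 CPM without and 1.79, 2.51 and 3.15 CPM with N6L, again without overlap. Irf7 rose 1.95-fold in the cytoplasm (1.32 to 2.89, FDR 0.0169) and 3.70-fold in the polysomes (2.43 to 5.65, FDR 0.00223). The polysomal call was kept in all 16 alternatives that tested the gene. The cytoplasmic one was lost without non-treated culture 1 (FDR 0.0639) or 2 (0.0561) or N6L culture 2 (0.105). Exons of Irf7 overlap those of Phrf1 on the opposite strand, with 48174 counts, and the strand setting of the counting is not given in the sources used here.

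Ifit1 (ENSMUSG00000034459, chr19:34640871-34650009, plus strand), which binds viral RNA that lacks the cap methylation of the host, had 1, 6 and 2 counts in non-treated cytoplasm and 9, 28 and 20 counts in N6L cytoplasm. These correspond to 0.0305, 0.272 and 0.1001 CPM and to 0.353, 0.565 and 0.502 CPM. In the polysomes it had 2, 2 and 0 counts without N6L, the last allowing up to 0.0798 CPM (3 counts, for counting error only), and 6, 14 and 5 counts with N6L. The N6L libraries were the higher ones in both fractions, all of them under 1 CPM. The estimated change was 3.81-fold in the cytoplasm (1.46 to 9.96, FDR 0.0386) and 5.61-fold in the polysomes (1.66 to 18.9, FDR 0.0702). The polysomal change was called with no filter (FDR 0.0199) and with the offset for transcript length and GC content (FDR 0.0409). The cytoplasmic call was kept in 8 of the 15 alternatives that tested the gene. It was lost with DESeq2 (FDR 0.056), with the replicate number as a block (0.0615) and with that block and the offset together. It was lost also without non-treated culture 1 (0.165) or 4 (0.088) or N6L culture 2 (0.133) or 3 (0.0747).

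Oasl2 (ENSMUSG00000029561, chr5:114896936-114912234, plus strand), of the oligoadenylate synthetase family, had 5, 2 and 4 counts in non-treated and 10, 19 and 12 counts in N6L cytoplasm. In the polysomes it had 4, 1 and 4 counts without and 11, 9 and 1 counts with N6L. The cytoplasmic groups did not overlap and the polysomal ones did, N6L culture 3 holding 1 count like the lowest non-treated library. The change was 2.39-fold in the cytoplasm (0.985 to 5.79, FDR 0.124) and 2.15-fold in the polysomes (0.799 to 5.81, FDR 0.313, or 0.122 without N6L culture 3), so neither passed the test. With the replicate number as a block the cytoplasmic change was called (FDR 0.0449).

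Isg15 (ENSMUSG00000035692, chr4:156199424-156200818, minus strand), the ubiquitin-like modifier that is among the most strongly induced genes in interferon-treated cells, had 13, 7 and 7 counts in non-treated and 5, 14 and 15 counts in N6L cytoplasm. The polysomal libraries held 9, 16 and 17 counts without and 12, 19 and 23 counts with N6L. In CPM the groups overlapped in both fractions. The estimates were 0.817-fold in the cytoplasm (0.447 to 1.49, FDR 0.606) and 1.28-fold in the polysomes (0.751 to 2.20, FDR 0.561), so that increases of more than 1.49-fold and 2.20-fold lay outside the 95% intervals.

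Ifit3 (ENSMUSG00000074896, chr19:34583531-34588731, plus strand), which stabilizes IFIT1 on RNA, had 12, 8 and 11 counts in non-treated and 8, 10 and 16 counts in N6L cytoplasm. In the polysomes it had 6, 10 and 7 counts without and 10, 5 and 2 counts with N6L. The groups overlapped in CPM, at 0.719-fold in the cytoplasm (0.378 to 1.37, FDR 0.422) and 0.710-fold in the polysomes (0.339 to 1.49, FDR 0.565). Its near-identical paralog Ifit3b, with 68 counts over all libraries, can share reads with it, so the split between the pair is uncertain.

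Bst2 (ENSMUSG00000046718, chr8:71534255-71537456, minus strand), also called tetherin, which holds budding virus particles at the cell surface, was the single abundant effector. It had 17.5, 18.0 and 18.4 CPM in non-treated cytoplasm and 15.2, 11.6 and 13.8 CPM in N6L cytoplasm. In the polysomes it had 19.4, 23.2 and 22.7 CPM without and 20.6, 20.9 and 27.4 CPM with N6L. The N6L libraries were the lower ones in the cytoplasm and overlapped with the others in the polysomes. The change was 0.755-fold in the cytoplasm (0.590 to 0.965, FDR 0.0781) and 1.05-fold in the polysomes (0.826 to 1.34, FDR 0.810). DESeq2 (FDR 0.0336) and a fit of only the cytoplasmic libraries (0.0302) called the cytoplasmic decrease, and an offset for transcript length and GC content turned it to a log2 change of 0.094.

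The level of each transcript on polysomes was next compared with that in the cytoplasm, through the ratio of the polysomal to the cytoplasmic library of a culture. Each library is scaled to its own total, so the ratio is relative to other transcripts. It is not the share of a transcript on polysomes. The study reported polysome peaks strongly reduced by N6L, and a lower total of polysomal RNA does not show in these values. In non-treated cultures 0 of 9 members differed between the fractions with edgeR (1 at an unadjusted p under 0.05, Irf7), and 0.209% of all genes did. DESeq2 called no member there either, but it gave no FDR for Isg15, Ifit1, Ifit3 and Oasl2. In N6L cultures 2 of 9 did, both higher in the polysomes, Isg15 by 2.22-fold (1.28 to 3.85, FDR 0.0262) and Bst2 by 1.69-fold (1.32 to 2.16, FDR 0.00599), where 39% of all genes were called. Both have the shortest exon sequence of the 9, 0.756 and 0.903 kilobases. With an offset for transcript length and GC content their log2 differences were 0.48 and 0.014 and neither was called. The cause of the differences was not tested. Without N6L culture 3, whose polysomal library stood apart, Isg15 differed by 1.06 on the log2 scale (FDR 0.137) and Bst2 by 0.63 (FDR 0.0406), and without N6L culture 2 neither passed (FDR 0.134 and 0.051). Blocking on culture added a call for Stat2, lower in the polysomes by a log2 difference of -0.41 (FDR 0.0357).

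The translational index, the log2 change with N6L in the polysomes minus that in the cytoplasm, was called for 0 of 9 members by edgeR and by DESeq2, as for 0% of all genes (1 member at an unadjusted p under 0.05). The smallest FDR over all genes was 0.555 by edgeR. The study, with a cut-off on its own translational index, reported genes changed in both directions. The absence of calls here does not show that no transcript shifted. The 1 member at an unadjusted p under 0.05 is given next. That member was Irf7, whose ratio of polysomes to cytoplasm was -1.24, -0.764 and -1.07 on the log2 scale in non-treated and -0.473, -0.187 and 0.237 in N6L cultures. Its index was 0.92 ± 0.39 (SE, unadjusted p = 0.0319 from edgeR's fit, FDR 0.555), and 0.72 without N6L culture 3. The ratio of Isg15 was 0.231, 0.619 and 0.472 without and 0.775, 1.06 and 1.18 with N6L, and that of Bst2 0.143, 0.365 and 0.303 against 0.432, 0.838 and 0.978. These 3 members were the ones whose cultures did not overlap between treatments, each at an exact two-sided permutation p of 0.1, the smallest that 3 cultures against 3 allow, and the ratios of 29.7% of all genes were separated in this way. For Irf1 the index was 0.041, with an interval from -0.47 to 0.55, so smaller differences than these bounds were not detectable.

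**Figure D3:**
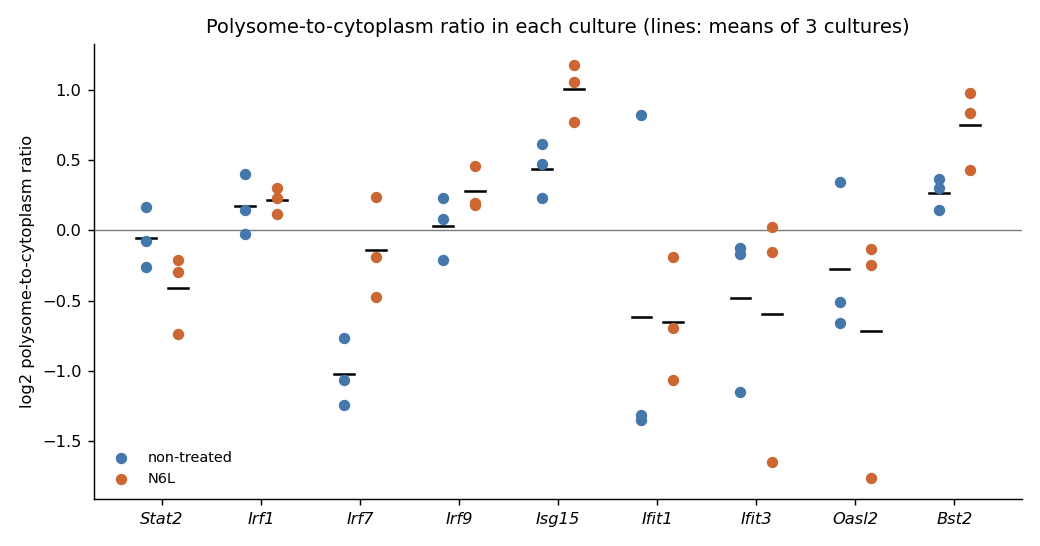
log2 ratio of the polysomal to the cytoplasmic level (vertical axis) of each member in the 3 non-treated (blue) and 3 N6L (orange) cultures, with lines at the means. The cultures of Irf7, Isg15 and Bst2 separate by treatment, while those of Ifit1, Ifit3 and Oasl2 spread over more than 1 log2 unit within at least 1 treatment.

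The other genes of the pathway were described by role from a list of 119 symbols, 117 of them matched and 84 tested. In the cytoplasm 20 of the 84 rose and 6 fell, with a median log2 change of 0.27. Of all 13889 genes tested, 14.5% were called higher in the cytoplasm, 1922 genes were called lower and 28.3% were called in either direction. DESeq2 called 23 higher and 10 lower there. In the polysomes 13 rose and 0 fell by edgeR (3 lower at an unadjusted p under 0.05, 1 lower by DESeq2), where 6.01% of all genes were called higher and 9.67% in either direction, with a median of 0.22. The same shares and numbers over all genes, also of those called lower, stand beside each count by role. The translational index was called for 0 of 84 by edgeR and by DESeq2 (11 at an unadjusted p under 0.05). Of the 10 interferon genes listed, 9 had 0 counts in every library, among them Ifnb1 and Ifng, which allows up to 0.154 CPM in the shallowest library (3 counts), and Ifne had 2 counts in all.

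Receptor subunits were not called in the cytoplasm by either tool (0 of 6, with 0 at an unadjusted p under 0.05), with a median log2 change of -0.096, and Ifngr2, a chain of the interferon-gamma receptor, rose 1.44-fold in the polysomes (FDR 0.0457). Of 12 further kinases, STATs and IRFs, 3 rose in the cytoplasm (4 higher and 1 lower by DESeq2). Stat3, which carries signals of interleukin-6 type cytokines, rose 2.40-fold in the cytoplasm (FDR 0.00203) and 1.83-fold in the polysomes (FDR 0.0232). Jak1, a kinase bound to interferon receptors, rose 1.84-fold in the cytoplasm (FDR 0.0209) and was at 0.992-fold in the polysomes (FDR 0.984).

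Sensors of nucleic acid and their adaptors rose in 3 of 10 cases in the cytoplasm (14.5% of all genes) and 2 of 10 in the polysomes (6.01% of all genes), with medians of 0.36 and 0.17. Ifih1, which encodes the RNA sensor MDA5, went from 0.198 to 1.13 CPM in the cytoplasm, a 5.82-fold increase (FDR 0.00227), and from 0.250 to 0.463 CPM in the polysomes (FDR 0.212). Its non-treated libraries held 4 to 10 counts and at most 0.318 CPM, under the 0.344 CPM of the filter. Ifih1 thus passed through N6L libraries alone and had to be higher with N6L to be tested. It is counted in the 3 of 10 and in the total over roles. Ddx58, encoding the sensor RIG-I, rose 1.73-fold in the cytoplasm (FDR 0.0184) and was at 1.02-fold in the polysomes (FDR 0.948). Ticam1, the adaptor of the endosomal receptor TLR3, rose 1.66-fold in the cytoplasm (FDR 0.0380) and 2.05-fold in the polysomes (FDR 0.0199). Tmem173, which encodes the adaptor STING, rose 1.91-fold in the polysomes (FDR 0.023) and was at 1.345-fold in the cytoplasm (FDR 0.162).

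The negative regulators moved in both directions, 1 of 7 higher and 3 of 7 lower in the cytoplasm, at a median of -0.41. Socs3, which restrains signalling through Janus kinases, rose 1.81-fold in the cytoplasm (FDR 0.0131) and 2.24-fold in the polysomes (FDR 0.00717). Socs1, its relative and a main brake on interferon receptors, fell from 5.36 to 2.80 CPM in the cytoplasm (FDR 0.0425) and was at 4.90 and 5.92 CPM in the polysomes (FDR 0.638). Irf2bp1 and Irf2bp2, corepressors that bind IRF2, fell to 0.689 and 0.748 of the non-treated level in the cytoplasm. In the polysomes they were at 0.915 and 0.914-fold (FDR 0.647 and 0.613). Of the 3 enzymes of ISG15 conjugation, Uba7, the activating enzyme, rose 2.15-fold in the cytoplasm (FDR 0.0153) and 2.11-fold in the polysomes (FDR 0.0354). Ube2l6, the conjugating enzyme, rose 1.58-fold in the polysomes (FDR 0.0447) and was at 1.12-fold in the cytoplasm (FDR 0.547).

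Of 28 antiviral effectors tested, 11 rose in the cytoplasm (14.5% of all genes) and 5 in the polysomes (6.01% of all genes), at medians of 0.56 and 0.25. DESeq2 called 12 higher and 3 lower in the cytoplasm, and 7 higher and 0 lower in the polysomes. Parp12 and Parp14 encode ADP-ribosyltransferases. Parp12 rose 1.79-fold in the cytoplasm and 1.78-fold in the polysomes (FDR 0.00228 and 0.00508). Parp14 rose 3.69-fold in the cytoplasm (FDR 0.00266) and was at 1.69-fold in the polysomes (FDR 0.202). Mx2, a dynamin-like GTPase, rose 2.98-fold and 2.15-fold (FDR 0.00419 and 0.0392), and Oas1b, of the same family as Oasl2, rose 2.35-fold and 2.93-fold (FDR 0.00643 and 0.00463). Trim21, a cytosolic antibody receptor, rose 1.95-fold in the cytoplasm (FDR 0.0111) and was at 1.37-fold in the polysomes (FDR 0.247). Mx2, Oas1b and Parp14 were at 3.02 CPM or less in the mean of every group. A further 11 of the matched effectors were not tested because of low counts, among them Rsad2 with 6, Ifi44 with 4 and Oas2 with 23 counts over all 12 libraries.

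Of 6 interferon-inducible GTPases tested, Irgm2, which acts on vacuoles of intracellular pathogens, rose 2.22-fold in the cytoplasm and 2.03-fold in the polysomes (FDR 0.0122 and 0.0459). Of 12 genes of antigen processing and presentation, 3 fell and 0 rose in the cytoplasm by edgeR and DESeq2 (0 higher at an unadjusted p under 0.05), at a median log2 change of -0.064. H2-D1, a classical MHC class I heavy chain, fell from 135.6 to 87.8 CPM in the cytoplasm (FDR 0.0111), Psme2, a proteasome activator subunit, from 111.1 to 66.4 CPM (FDR 0.0150), and Psmb10, a subunit of the immunoproteasome, from 49.6 to 22.5 CPM (FDR 0.0154). In the polysomes these 3 genes were at 1.02, 0.837 and 0.767-fold, with FDR of 0.915, 0.434 and 0.445. Psmb8 and Psmb9, the other immunoproteasome subunits, had 65 counts each over all libraries and were not tested.

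**Figure D4:**
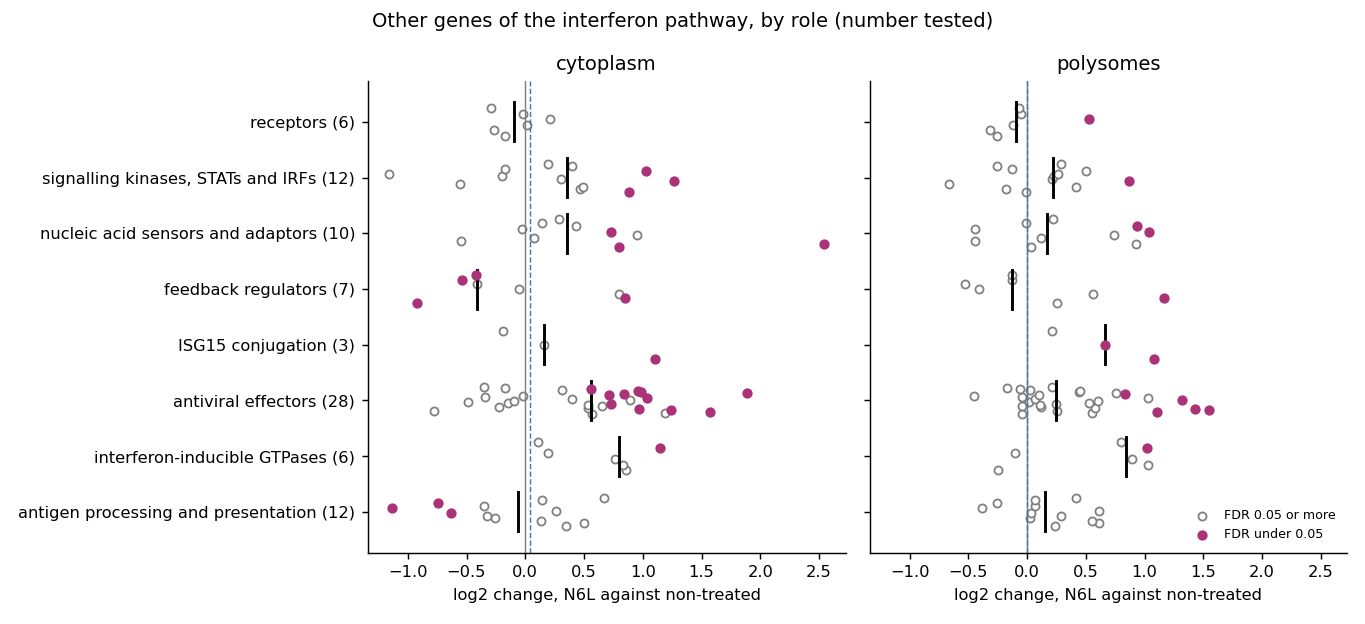
log2 change in N6L against non-treated cultures (horizontal axis) of the 84 other pathway genes tested, by role, in the cytoplasm (left) and the polysomes (right). Filled points have an FDR under 0.05, black lines are medians of a role group and dashed lines the median of all genes. Antiviral effectors hold 11 filled points in the cytoplasm, all above 0, and antigen presentation 3, all below 0. DESeq2, not drawn, called 12 antiviral effectors higher and 3 lower in the cytoplasm.

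The genes whose pattern was most like the mean profile of the 9 members (mean of z-scored log2 CPM over the 12 libraries, over 11862 genes averaging 1 CPM or more) were Zfp36 with Pearson's r of 0.972, Ccn1 with 0.964, Jun with 0.961, Rnase4 with 0.961, Nsdhl with 0.958 and Btg2 with 0.958. The profile includes Ifit1 and Oasl2, which passed the filter through N6L libraries alone, and the 6 genes were picked for likeness to it. That all 6 were higher with N6L is thus not a separate result. Zfp36, which encodes an mRNA decay factor, had means of 117.8 and 502.9 CPM in non-treated and N6L cytoplasm, and Btg2, an immediate early antiproliferative gene, had 62.1 and 307.6 CPM. The members themselves differed in how well they followed their mean profile, from 0.956 for Irf1 and 0.896 for Irf9 to 0.075 for Isg15, -0.193 for Bst2 and -0.382 for Ifit3. Each member is itself part of that mean, which raises its r. The libraries share the treatment, so r over them is a description.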

How the data were processed

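Cytoplasmic and polysomal poly(A)+ RNA of 6 cultures was sequenced with a stranded kit. The deposited values are raw counts per gene, made by the authors with STAR and HTSeq 0.5.3 on mm10 after bcl2fastq 2.18.0.12, per the submitters' processing notes. Neither the annotation nor the counting options (strand, reads with several positions) were given in the sources used here. Each of 12 libraries was deposited as 4 technical replicates, which were summed (chi-square per degree of freedom 1.02 to 1.04). For 3 replicates of N6L culture 2 in the cytoplasm the labels name different cultures, and they were omitted in an alternative. Of 50600 IDs, 50376 were found in GENCODE vM21 and 0 named no gene.

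edgeR 4.0.16 (R 4.3.3) was used for the filter (filterByExpr, 13889 genes), the TMM scaling and the quasi-likelihood test, with 1 mean per combination of fraction and treatment and no block. FDR is the Benjamini-Hochberg adjusted p over all genes tested, with a limit of 0.05. DESeq2 1.42.0 was the alternative tool. Log2 CPM used a prior count of 2. The scripts were tested on simulated data.

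Members, lists and alternatives were chosen with earlier results of these data known. All members are named, and of each role group up to 5 genes past the limit in either fraction, by lowest cytoplasmic p, or else the 2 most abundant. Of the genes this rule picked, 2 are not reported here. The lists on cell types served as markers only. The libraries of a culture are paired, since 1 lysate gave both. Their deviations correlated by 0.364, 0.452 and 0.645 without N6L and by 0.0368, 0.199 and 0.229 with it. The culture was a block in an alternative.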

Additional observations from a re-analysis of the deposited data

How the results depend on the processing

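Of 409 single-gene values under the alternatives, 369 kept their direction and their side of the FDR limit, 19 lost it, 5 gained it and 16 changed sign. A missing FDR was counted as not called. Most of the 409 belong to results not called in the reported fit, which had no call to lose. The 19 are thus a larger part of the values that could lose one. Counts of members called, 5, 4, 0, 0 and 2 for N6L in cytoplasm, N6L in polysomes, the translational index, and polysomes against cytoplasm in non-treated and in N6L cultures, ranged over the left-out cultures from 2 to 5, 2 to 4, 0 to 0, 0 to 0 and 0 to 2. A filter of at least 10 counts in every library left only Stat2, Irf1, Irf9 and Bst2 to test. With it, 3 members were called in the cytoplasm and 1 for polysomes against cytoplasm in N6L cultures. The latter count was 1 also without a filter, with technical replicate a alone and with only the groups compared (Bst2 each time), 0 with the offset for transcript length and GC content, and 1 with the replicate block and that offset (Irf9, log2 0.33, FDR 0.038). The combined block and offset called 1 member in non-treated cultures (Irf7, FDR 0.0204). DESeq2 called 5 members in the cytoplasm, without Ifit1 and with Bst2, lower.

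For the wider list, with 26 genes called in the cytoplasm and 13 in the polysomes, left-out cultures gave 7 to 25 and 1 to 14. The lowest counts came without N6L culture 2 in the cytoplasm, and without it or non-treated culture 1 in the polysomes. Fits of only the groups compared gave 40 and 3, technical replicate a alone 6 in the polysomes, and the offset 20 there. The cause was not tested.

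No value whose sign changed was called in the reported fit. With the offset the cytoplasmic log2 changes of Isg15 and Bst2 were 0.17 and 0.094 (Bst2 0.027 with block and offset). The index of Irf1 was -0.015 with library size alone, -0.19 with the offset and -0.20 with block and offset, and that of Ifit3 0.00047 with RLE factors. Over left-out cultures Bst2 in polysomes ranged from -0.070 to 0.15, and the index from -0.043 to 0.19 for Irf1, -0.20 to 1.74 for Ifit1, -0.58 to 0.58 for Ifit3 and -0.41 to 0.30 for Oasl2. Library size alone moved the median of all genes in the cytoplasm from 0.042 to 0.186.

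Non-treated and N6L cultures share only numbers 1 and 2, whose deviations correlated by 0.228 and 0.0455 in the cytoplasm and 0.296 and 0.00756 in the polysomes. With the number as a replicate block, 5 and 4 members were called, and 34 and 10 genes of the wider list. In the cytoplasm Ifit1 was lost (FDR 0.0615) and Oasl2 gained (FDR 0.0449). Ifit1 was gained in the polysomes without a filter and with the offset, for 5 members each. The culture as a block for polysomes against cytoplasm called 3 members in N6L and 0 in non-treated cultures, and 0 for the index.

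With 3 cultures a group, and 5 to 23 counts of Isg15 and 0 to 28 of Ifit1 in a library, moderate changes of these members were not detectable.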
